A study of Mus musculus with 18 samples.

Results

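The killer cell lectin-like receptor (Klr) genes were taken as every gene whose symbol in the deposited count table began with Klr, which gave 30 of the 54232 genes in the table. All 30 lay on mouse chromosome 6, and 4 of them were annotated as pseudogenes. Bulk RNA-seq had been run on lacrimal glands (LGs) from 18 males, 1 gland per animal and 3 animals in each of 6 groups formed by 2 strains and 3 ages. BALB/c mice (BALB/cJ) were the controls. NOD.H-2b mice (NOD.B10Sn-H2b/J) carry the H2b major histocompatibility segment of the C57BL/10 background on the NOD genome, and serve as a model of Sjögren's syndrome. The labels name no treatment, and the mice were 2 months (2M), 4 months (4M) or 6 months (6M) old.

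Klr genes encode C-type lectin-like receptors that sit mainly on natural killer (NK) cells and on subsets of T cells, and they are packed together in the NK gene complex. Inhibitory members such as Klrc1 with its partner Klrd1, and most Klra (Ly49) receptors, bind class I major histocompatibility molecules or their peptides and hold the cell back. Activating members such as Klrk1 (NKG2D) pass a signal through the adaptors Tyrobp and Hcst. The number of Klra genes is known to differ between inbred mouse strains, and the cluster of BALB/c is among the shorter ones described. The reference genome to which the reads were aligned is that of C57BL/6J, which is neither of the strains, so a count here is the number of reads assigned to a C57BL/6J gene model.

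Of the 13 Klra genes tested, 11 had higher fitted fold changes between the strains (log2 5.65 to 9.76) than any other Klr gene, while Klra2 at 3.48 and Klra3 at 1.62 did not. A run of 12 genes, from Klra17 to Klra1 and leaving out Klra3, spanned 556 kb (chr6:129831154-130386874, GRCm38) and together had 24 read counts over the 9 BALB/c mice against 8136 over the 9 NOD.H-2b mice. These 12 genes were singled out after their values were seen, so they are described here and not tested as a list. Of all Klr counts, they held 3.02% in the BALB/c glands and 48.8% in the NOD.H-2b glands. In single mice the share ran from 0 to 13.5% in BALB/c and from 46.7% to 52.6% in NOD.H-2b. Because the genes were picked by their low BALB/c counts, a lower share in BALB/c follows from the choice.

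The 250 bases upstream of 3 of these genes are shown because the genes were at or near 0 counts in every BALB/c mouse while their upstream regions resembled each other. The sequences are the C57BL/6J reference from RefSeq (GRCm38.p6), 5′ to 3′ on the strand of the gene, and not the sequence of either strain studied. Klra4 and Klra8 shared 212 of the 250 bases in a global alignment with a low penalty for end gaps, Klra17 and Klra4 shared 203, and Klra17 and Klra8 shared 199. The capitals mark AAGCAATTTCCTCTTTT, the longest run of 17 bases common to all 3. It ended 63 to 69 bases before the start of transcription. On either strand the run was found in 8 (0.0244%) of the 32851 upstream regions in the table. That share includes the Klra regions from which the run was picked, so it is no background for them. The same run was upstream of Klra6, of Klra9 and, in an entry whose first transcribed bases were not found in a GENCODE transcript of the gene, of Klra3, so 6 of the 11 Klra genes with an upstream region held it, among them Klra3, which was detected in both strains.
Klra17, chr6:129876673-129876922, minus strand: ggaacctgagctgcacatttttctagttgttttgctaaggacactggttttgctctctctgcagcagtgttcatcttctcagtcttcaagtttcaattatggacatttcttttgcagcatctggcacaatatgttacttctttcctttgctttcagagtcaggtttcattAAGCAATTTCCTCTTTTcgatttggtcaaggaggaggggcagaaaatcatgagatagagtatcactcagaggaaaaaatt
Klra4, chr6:130067272-130067521, minus strand: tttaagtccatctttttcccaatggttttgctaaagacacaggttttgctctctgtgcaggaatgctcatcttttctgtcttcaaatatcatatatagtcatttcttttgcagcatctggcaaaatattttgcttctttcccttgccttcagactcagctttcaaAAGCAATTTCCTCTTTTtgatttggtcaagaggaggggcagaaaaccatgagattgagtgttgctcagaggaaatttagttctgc
Klra8, chr6:130129899-130130148, minus strand: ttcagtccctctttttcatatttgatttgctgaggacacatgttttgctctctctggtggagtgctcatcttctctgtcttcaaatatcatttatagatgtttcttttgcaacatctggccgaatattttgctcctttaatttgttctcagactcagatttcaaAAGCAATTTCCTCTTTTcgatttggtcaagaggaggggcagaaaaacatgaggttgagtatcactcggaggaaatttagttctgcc
The upstream regions of Klra1 and Klrk1 are also given, one from a gene near 0 in BALB/c and one from a gene detected in both strains. Here the capitals mark TGTGGT, the core bound by RUNX factors, which both regions hold.
Klra1, chr6:130386875-130387124, minus strand: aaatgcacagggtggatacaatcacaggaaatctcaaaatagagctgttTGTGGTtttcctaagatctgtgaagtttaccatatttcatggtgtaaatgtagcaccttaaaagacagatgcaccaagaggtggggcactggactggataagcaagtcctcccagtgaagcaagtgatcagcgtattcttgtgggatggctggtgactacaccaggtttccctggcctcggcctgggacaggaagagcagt
Klrk1, chr6:129623865-129624114, minus strand: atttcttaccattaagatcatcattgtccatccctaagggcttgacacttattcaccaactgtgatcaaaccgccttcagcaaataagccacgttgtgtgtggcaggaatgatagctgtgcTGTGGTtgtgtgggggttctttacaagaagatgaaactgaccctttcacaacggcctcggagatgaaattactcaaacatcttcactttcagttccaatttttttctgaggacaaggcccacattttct
An upstream region was given for 23 of the 30 Klr genes. TGTGGT or its reverse complement ACCACA was present in 8 of the 23 (34.8%) and in 14% of all upstream regions. Of the 11 Klra genes among the 23, only 1 held it (9.09%), namely Klra1. The T-box core TCACACC or its reverse complement GGTGTGA was present in 0 of the 23 and in 3.33% of all. A Klr gene counted if any of its entries held the core, while the shares of all upstream regions were taken per entry. The matches only describe these letters in this window.

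Total counts ran from 49480781 to 103936830 per mouse. All 30 Klr genes together made up 43 to 105 counts in 8 BALB/c mice, 270 counts in BALB/c 4M replicate 3 and 875 to 3310 counts in the NOD.H-2b mice. Scaled to CPM, the count per 1000000 counts of the TMM-adjusted library, the summed Klr level was 0.758 to 1.90 CPM in the 8 BALB/c mice, 4.03 CPM in BALB/c 4M replicate 3 and 14.4 to 43.3 CPM in NOD.H-2b. BALB/c 4M replicate 3 stood apart from the other BALB/c mice in lymphocyte genes as well: 12 NK marker genes summed to 5.79 CPM there against 1.34 to 2.45 CPM in the others, and 12 T cell genes to 7.02 CPM against 0.741 to 3.05 CPM. Results that rest on this mouse are therefore given with and without it. NOD.H-2b 2M replicate 1 had the lowest Klr level of its strain. Lacrimal epithelial genes were abundant in every mouse, and none of the 7 examined (Aqp5 and Ltf among them) was called different between the strains averaged over ages, although 5 of the 7 passed the adjusted p at changes under 2-fold (3 higher in NOD.H-2b and 2 lower). Against 9.09% of all genes, 6 of the 7 had a lower strain difference at 6M than at 2M (edgeR interaction, adjusted p under 0.05). They summed to 2013 to 2550 CPM in NOD.H-2b against 1490 to 1525 CPM in BALB/c at 2M, and to 1344 to 1448 CPM against 1514 to 1736 CPM at 6M. The part of the epithelium in the Klr values was not tested.

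**Figure D1:**
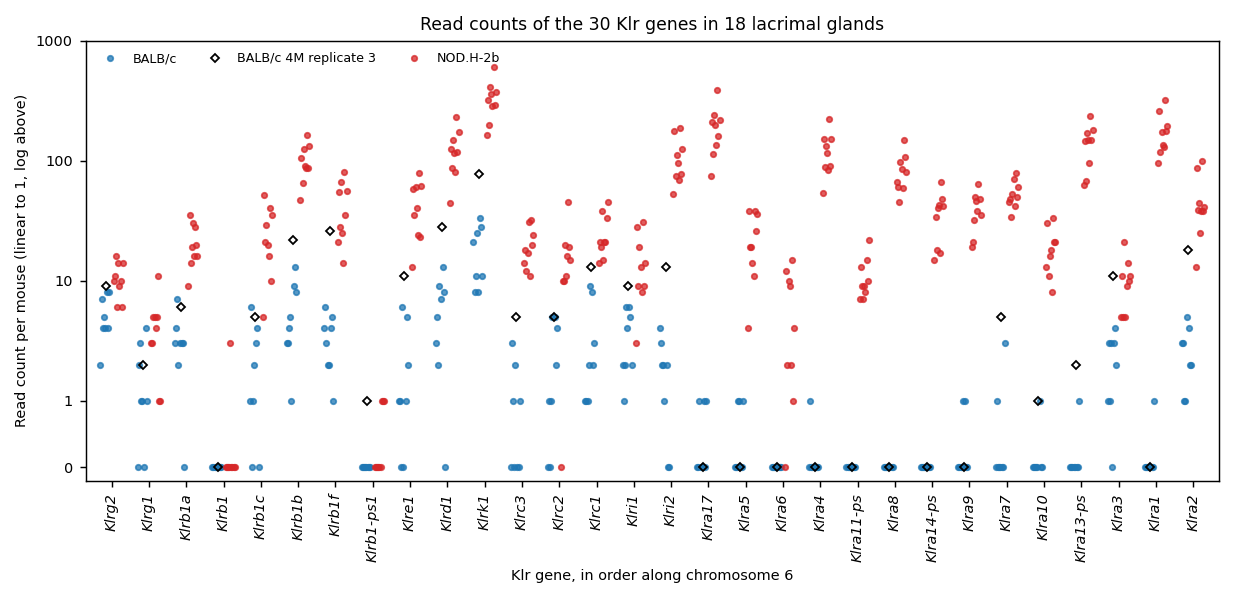
Read counts of each Klr gene in each mouse, with genes in their order along chromosome 6; points are mice, diamonds mark BALB/c 4M replicate 3, and the vertical axis is linear from 0 to 1 and logarithmic above. From Klra17 to Klra1 the BALB/c mice sit at 0 to 5 counts, except for Klra3, while NOD.H-2b mice reach 391 counts for Klra17; for Klrk1 and Klrd1 most BALB/c mice have counts too.

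Each strain comparison used edgeR's quasi-likelihood test over all genes, and a gene was called when its Benjamini-Hochberg adjusted p was under 0.05 and its change was at least 2-fold. Between strains at 2M, 18 of 19 Klr genes that passed the filter on low counts were called higher in NOD.H-2b and 0 lower, where 12% of all genes tested were called higher and 3.76% lower. At 4M, 19 of 21 were called higher and 0 lower, against 15.6% and 4.72% of all genes, and at 6M 24 of 24 higher against 18.8% higher and 6.03% lower. Averaged over the 3 ages, 25 of 26 were called higher and 0 lower, against 17.6% and 5.19%. Because a Klr gene passed the filter through NOD.H-2b where it was near 0 in BALB/c, these counts describe the genes that passed and do not stand for all 30. In 19 of the 26 every NOD.H-2b mouse lay above every BALB/c mouse, against 11.2% of all genes. The median log2 fold change was 4.01, against -0.02 over all genes. In a whole gland, fewer cells of a type and less RNA per cell cannot be told apart.

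The receptor Klrk1 showed the level of the family in both strains. Klrk1 had 21, 8 and 11 counts in BALB/c at 2M, 25, 8 and 78 at 4M and 33, 28 and 11 at 6M. In NOD.H-2b, Klrk1 had 164, 318 and 198 counts at 2M, 413, 357 and 286 at 4M and 606, 294 and 373 at 6M. The highest BALB/c mouse, 4M replicate 3, stayed under the lowest NOD.H-2b mouse. Averaged over ages Klrk1 was higher in NOD.H-2b by 3.70 on the log2 scale (SE 0.28, 9 mice per strain, edgeR adjusted p = 1.79e-08), and by 4.05 without BALB/c 4M replicate 3.

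Klrd1 (CD94), the partner chain of the Klrc receptors, followed the same order. Klrd1 had 0 to 13 counts in 8 BALB/c mice, 28 counts in BALB/c 4M replicate 3 and 44 to 233 counts in NOD.H-2b. Its difference averaged over ages was 3.97 on the log2 scale (SE 0.31), or 4.22 without BALB/c 4M replicate 3. The groups did not overlap. The Klrc genes also rose in NOD.H-2b: inhibitory Klrc1 (NKG2A) by 2.76, activating Klrc2 (NKG2C) by 2.79 and Klrc3 by 3.93 on the log2 scale. Klrc2 overlapped between strains, since NOD.H-2b 2M replicate 1 had 0 counts of it. Of the 75-base stretches in the transcripts of Klrc1, Klrc2 and Klrc3, 25.0%, 11.3% and 23.5% also occurred in another gene, so reads may have been split among these 3 and their single values are uncertain.

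Klre1 pairs with Klri1 into an inhibitory receptor and with Klri2 into an activating one. Klre1 was higher in NOD.H-2b by 4.05 on the log2 scale (SE 0.48). Klri2 had 0 to 13 counts in BALB/c and 53 to 188 in NOD.H-2b and differed by 5.37 (SE 0.37), the highest value among the tested Klr genes outside the Klra group. Klri1 differed by 1.85 (SE 0.39, adjusted p = 0.000375 by edgeR) and overlapped between the strains, with 1 to 9 counts in BALB/c and 3 to 31 in NOD.H-2b. Whether Klri1 and Klri2, which lie side by side, differed from each other in this was not tested.

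Among the Klrb (NKR-P1) genes, 4 of 6 could be tested and all 4 rose in NOD.H-2b averaged over ages. Klrb1b, an inhibitory receptor for Clec2d, had 1 to 22 counts in BALB/c and 47 to 163 in NOD.H-2b, a difference of 3.69 on the log2 scale (SE 0.30). Klrb1c, which carries the NK1.1 epitope in C57BL mice, rose by 3.17, Klrb1f by 2.81 and Klrb1a by 2.51. Klrb1f rested in part on BALB/c 4M replicate 3, which had 26 counts where the other BALB/c mice had 1 to 6; at 4M Klrb1f was not called (edgeR adjusted p = 0.146), and without this mouse the averaged difference was 3.51. Klrb1b and Klrb1c share 23.8% and 11.4% of their 75-base stretches with Gm44511, a readthrough model that overlaps both, and Klrb1f overlaps an antisense gene. Klrb1 had 0 counts in BALB/c, and Klrb1-ps1 had at most 1 count in any mouse.

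Klrg2, which lies far from the complex, was the tested Klr gene that was not called. Klrg2 had 2 to 9 counts in BALB/c and 6 to 16 in NOD.H-2b, and the strains overlapped (log2 fold change 0.79, SE 0.32, edgeR adjusted p = 0.0344). Klrg1, a receptor for cadherins, had 0 to 4 counts in BALB/c and 1 to 11 in NOD.H-2b and passed no filter averaged over ages.

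The Klra genes split into 2 sets. Klra1 (Ly49A), an inhibitory receptor, had 0 counts in 8 BALB/c mice and 1 count in BALB/c 6M replicate 3. In NOD.H-2b, Klra1 had 96, 261 and 119 counts at 2M, 172, 135 and 130 at 4M and 319, 177 and 194 at 6M. The pooled ratio of Klra1 was 1479 (exact 95% interval 265 to 58450, counting error only), and edgeR's adjusted p was 3.09e-11.

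Klra17 (Ly49Q), which is known from plasmacytoid dendritic cells and other myeloid cells, had 3 counts in all of BALB/c. In NOD.H-2b, Klra17 had 74, 211 and 114 counts at 2M, 242, 199 and 134 at 4M and 391, 162 and 218 at 6M. Its pooled ratio was 537 (interval 183 to 2605). Of 5 plasmacytoid dendritic cell genes, 3 were called higher in NOD.H-2b, against 17.6% of all genes. Siglech rose by 2.23, Pacsin1 by 6.26 and Cox6a2 by 5.06 on the log2 scale. Siglech was detected in every mouse of both strains, with 29 to 119 counts in BALB/c. The part of these cells in the Klra17 counts was not tested. Klra17 also overlaps 2 genes on the opposite strand, and the strand setting of the counting was not given in the sources used here.

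Klra4, listed as Klra18 in the deposited table and as Klra4 in GENCODE M21, had 1 count in BALB/c and 54 to 221 counts in each NOD.H-2b mouse. Klra8 (Ly49H), an activating receptor for a viral protein in C57BL mice, had 0 counts in all 9 BALB/c mice and 45 to 150 in NOD.H-2b. The NOD.H-2b level of Klra8 was at least 24.3-fold higher, taking 3 counts per BALB/c mouse as the floor. Klra14-ps, also at 0 in BALB/c, was at least 10.4-fold higher and Klra11-ps at least 3.29-fold higher. Klra13-ps had 3 counts in BALB/c against 63 to 236 counts in NOD.H-2b mice (pooled ratio 387, interval 132 to 1879), and 2 of the 3 came from BALB/c 4M replicate 3. Without this mouse its pooled ratio was 1010 (181 to 39941).

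Klra9, Klra10, Klra5 and Klra7 had 2, 2, 3 and 9 counts over all BALB/c mice against 353, 171, 205 and 481 counts in NOD.H-2b. Averaged over ages Klra7 differed by 5.65 on the log2 scale, or 6.96 without BALB/c 4M replicate 3, and Klra10 by 5.89, or 6.54 without it. Of the 9 counts of Klra7, 5 came from BALB/c 4M replicate 3, 3 from BALB/c 6M replicate 3 and 1 from BALB/c 2M replicate 2. Klra6 was at 0 in BALB/c and had 0 to 15 counts in NOD.H-2b, too few for the test. In BALB/c 4M replicate 3, the mouse with most Klr counts of its strain, 8 of 270 Klr counts belonged to these 12 genes, and Klra1, Klra17, Klra4 and Klra8 were at 0.

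The remaining Klra genes were detected in both strains. Klra3 (Ly49C) had 0 to 4 counts in 8 BALB/c mice, 11 counts in BALB/c 4M replicate 3 and 5 to 21 in NOD.H-2b. Klra3 lies between Klra13-ps and Klra1 and differed by 1.62 on the log2 scale (SE 0.46, edgeR adjusted p = 0.00413), or 2.10 without BALB/c 4M replicate 3, and the strains overlapped. Klra2 (Ly49B), set apart from the other Klra genes at chr6:131219223-131247362, had 1 to 18 counts in BALB/c and 13 to 99 in NOD.H-2b and differed by 3.48 (SE 0.42). No 75-base stretch of Klra17, Klra5, Klra6 or Klra2 occurred in another gene, and 0.237% of those of Klra1 and 0.342% of those of Klra4 did. In contrast 19.7% of Klra8, 16.0% of Klra14-ps, 14.4% of Klra10, 12.4% of Klra11-ps and 12.1% of Klra9 were shared. For Klra3, Klra13-ps and Klra7 the shares were 6.39%, 6.08% and 5.71%. The single values of all these genes are less certain. Only C57BL/6J transcripts were compared, so the shares do not show how reads of either strain studied were assigned.

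Per length of exon, the order of the Klr genes in NOD.H-2b was led by Klra17, Klra13-ps, Klra1, Klrd1 and Klra4. Klra17 stood at 2.55 ± 0.955 RPKM (CPM per kilobase of exon; SD, n = 9), Klra13-ps at 2.13 ± 0.740, Klra1 at 1.60 ± 0.516, Klrd1 at 1.55 ± 0.584 and Klra4 at 1.53 ± 0.510. The ranges over mice of neighbours in this order overlapped. Klra8 followed at 1.13 ± 0.351 RPKM and Klrk1 at 0.739 ± 0.227 RPKM. In BALB/c the highest level was that of Klrd1 at 0.106 ± 0.0950 RPKM, with Klri1 at 0.0842 ± 0.0476 RPKM.

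To set the strains side by side for a comparable amount of NK receptor RNA, counts were expressed per 100 Klrk1 counts. Klrk1 itself is made by NK cells and by activated T cells, so the ratio has no single cell type as its base. Klrd1 stood at 33.6 per 100 Klrk1 counts in BALB/c (exact 95% Poisson interval 26.5 to 42.2) and at 37.6 in NOD.H-2b (35.4 to 39.8). Klrb1b stood at 30.5 and 30.0, Klre1 at 12.1 and 13.1, and Klra2 at 17.5 and 14.1, all with overlapping intervals. These ratios rest on 223 Klrk1 counts from all BALB/c mice and 3009 from all NOD.H-2b mice.

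In the same unit, Klra17 was at 1.35 in BALB/c (0.277 to 3.93) and 58.0 in NOD.H-2b (55.3 to 60.8). Klra1 was at 0.448 (0.0113 to 2.50) and 53.3 (50.7 to 55.9), and Klra8 at 0 (0 to 1.65) against 25.0 (23.2 to 26.8). The intervals of 12 genes lay apart with NOD.H-2b higher, namely Klri2 and 11 Klra genes. For 8 genes they lay apart in the other direction. Klra3 stood at 12.6 in BALB/c against 3.02 in NOD.H-2b and Klri1 at 16.6 against 4.45. The pooled ratios of Klrg2, Klrg1, Klrb1a, Klrb1f, Klrc1 and Klrc2 were also higher in BALB/c. Without BALB/c 4M replicate 3, Klra3 was at 11.7, Klri1 at 19.3 and Klrd1 at 32.4 in BALB/c. Klrb1f, at 23.8 (17.8 to 31.1) with this mouse, was at 18.6 (12.3 to 27.1) without it and overlapped the NOD.H-2b interval of 11.4 to 14.0. Without this mouse 11 genes lay apart with NOD.H-2b higher and 7 with BALB/c higher, since Klra5 at 2.07 (0.427 to 6.05) overlapped as well. The intervals cover the counting error of the named gene only, not that of Klrk1 or the spread between mice. They were computed for the Klr genes only, so no share over all genes stands beside these counts.

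**Figure D2:**
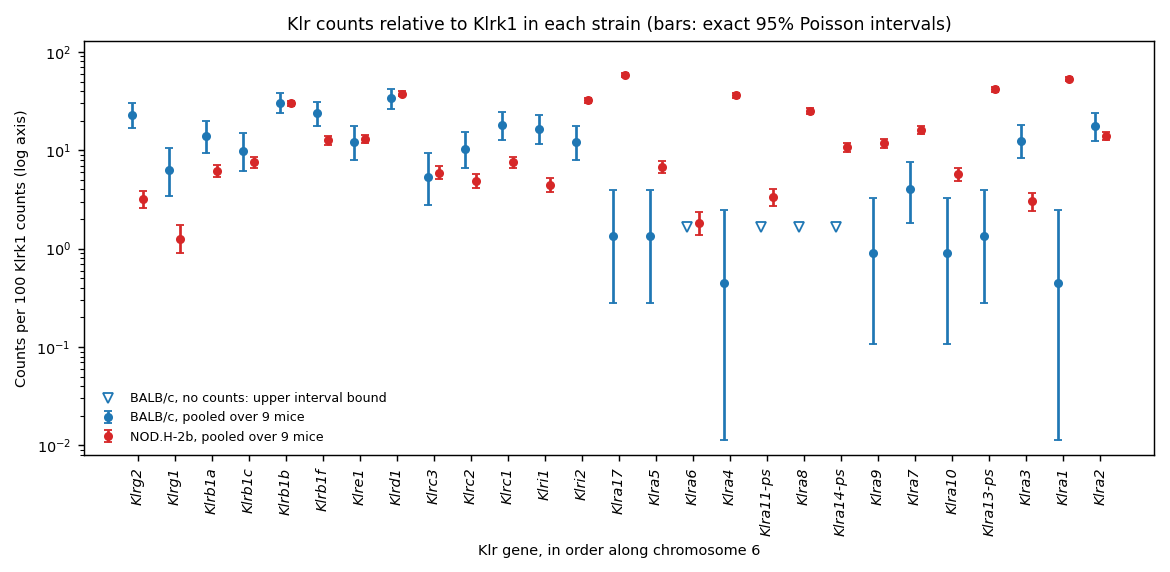
Counts of each Klr gene per 100 Klrk1 counts, pooled over 9 mice of each strain, on a log axis; bars are exact 95% Poisson intervals and open triangles give the upper bound of that interval where the count was 0. Klrd1, Klrb1b and Klre1 sit at like heights in both strains, Klra17 and Klra1 are at 1.35 and 0.448 in BALB/c against 58.0 and 53.3 in NOD.H-2b, and Klra3 and Klri1 are higher in BALB/c.

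The same question was put to all 19117 genes with a test across mice, in which the Klrk1 count of each mouse replaced its library size. This reference was chosen after seeing the data. Of 26 Klr genes, 12 were called higher in NOD.H-2b relative to Klrk1 and 4 lower, where 2.44% of all genes were called higher and 92.4% lower. Here too, Klr genes barely detected in BALB/c passed the filter through NOD.H-2b, so the counts describe only the genes that passed. The 26 include Klrk1, whose own value of 0.04 was fixed by its use as the reference. The differences of Klrd1 (0.22, SE 0.43, edgeR adjusted p = 0.619) and Klrb1b (0.03, SE 0.43) did not pass the test. The interval of 2 SE to either side ran from -0.64 to 1.07 for Klrd1 and from -0.83 to 0.89 for Klrb1b, so changes near 2-fold could not be told from none. Klra3 was lower by -2.01 on the log2 scale (SE 0.60, adjusted p = 0.000938) and Klri1 by -1.99 (SE 0.57, adjusted p = 0.000562). Klri2 was higher by 1.79 (SE 0.52), Klra17 by 6.14 (SE 0.78) and Klra7 by 2.19 (SE 0.66). Klrb1a and Klrg2 were the other genes called lower. Klrb1f (edgeR adjusted p = 0.0845), Klrc1 (0.0724) and Klrc2 (0.228), whose pooled intervals lay apart, were not called across mice. Klrg1 did not pass the filter. Without BALB/c 4M replicate 3, 12 of 27 Klr genes were called higher and 5 lower (2.2% and 92.2% of all genes), Klrc1 at -1.21 being the fifth, and Klra7 was at 4.17 and Klra13-ps at 7.78 instead of 6.19.

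NK cell markers that are not Klr genes gave a further reference. Besides Ncr1 the list held Gzma, Prf1, Xcl1, Eomes and Itga2 among others, and the part of other cells in them was not tested. All 11 markers tested were called higher in NOD.H-2b averaged over ages, against 17.6% of all genes. Their median log2 fold change was 3.23, with a range from 1.86 to 4.72. Ncr1 (NKp46), an activating receptor of NK cells, had 0 to 60 counts in BALB/c and 66 to 193 in NOD.H-2b and rose by 3.23 (SE 0.39). As the reference, the mean log2(CPM + 0.1) of the tested markers was added to the log2 TMM-adjusted library size of each mouse. Of 26 Klr genes, 17 were called higher in NOD.H-2b and 1, Klrg2, lower, where 4.84% of all genes were called higher and 86.3% lower. The same limit holds for these counts, since Klr genes barely detected in BALB/c passed the filter through NOD.H-2b. Of the 11 markers themselves, 4 were called higher in this fit. They had a median of 0.80 and ran from -0.74 to 2.35 over all 11, so a value within that range does not set a Klr gene apart from them. Klrk1 at 1.20, Klrd1 at 1.48, Klrb1b at 1.19, Klra2 at 0.98 and Klri1 at -0.72 lay inside it.

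Outside the range of the markers were Klri2 at 2.95 and 11 Klra genes from Klra7 at 3.36 to Klra8 at 8.64 above it, and Klra3 at -0.84 and Klrg2 at -1.70 below it. The difference of Klra3 did not pass the test (edgeR adjusted p = 0.109). The value of Klra8 depends on the prior count of the fit because BALB/c was at 0. Without BALB/c 4M replicate 3, Klra7 was at 5.07, Klra13-ps at 8.16 instead of 6.84, and Klra10 at 5.34 instead of 4.32. Klra3 was then at -0.55, inside the range that the markers had with all mice. The error of the reference was not carried into these p-values.

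**Figure D3:**
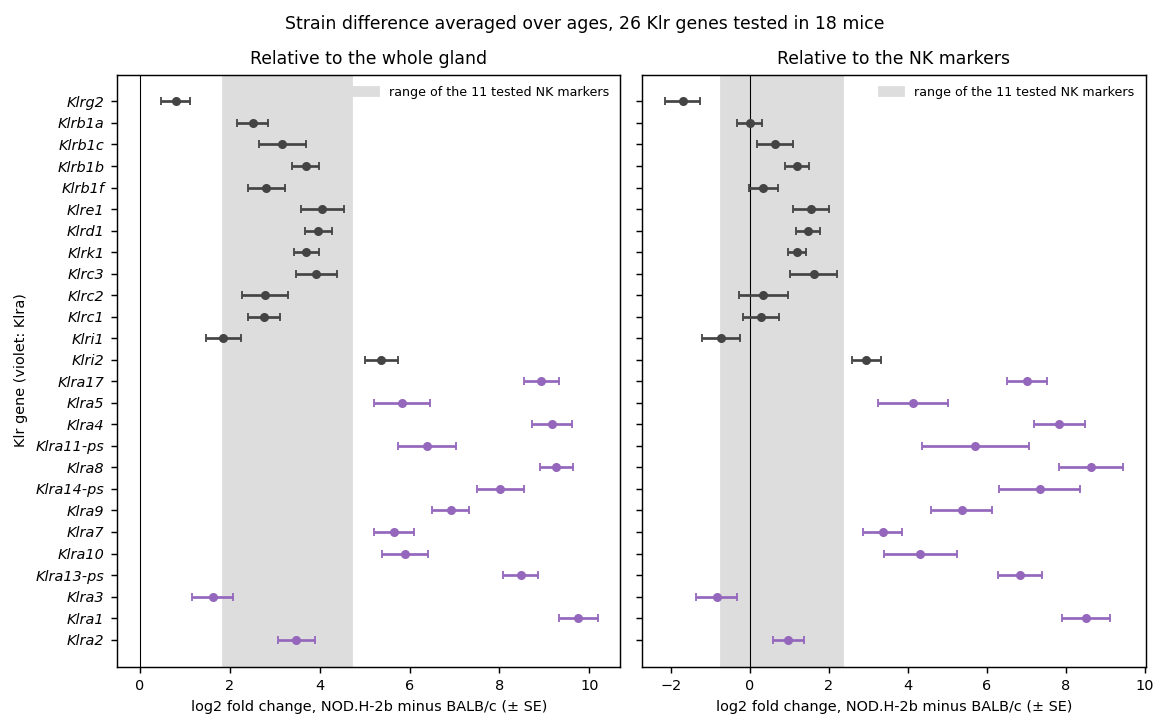
Log2 fold change between strains (NOD.H-2b minus BALB/c, averaged over ages, ± SE) of the 26 tested Klr genes relative to the whole gland (left) and to NK markers (right); the grey band is the range of the 11 NK markers, 1.86 to 4.72 on the left and -0.74 to 2.35 on the right. Most genes from Klrb1a to Klri1 sit in the band, while Klri2 and 11 Klra genes lie to its right in both panels; fitted values of genes at 0 counts in BALB/c depend on the prior count.

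Other cell types moved with the same contrast, in which 17.6% of all genes were called higher. Of 11 genes shared by NK and CD8 T cells, 11 were called higher in NOD.H-2b (median 4.32 on the log2 scale), as were 12 of 12 T cell genes (median 5.41), 6 of 6 B cell genes (median 8.22) and 8 of 9 monocyte and macrophage genes (median 1.98). Itgam was the exception, at 0.14. With the T cell list as the reference the differences of Klrk1 and Klrd1 were -0.25 and -0.03 on the log2 scale. The part of each cell type in the Klr counts was not tested.

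Signalling partners of the receptors were higher as well. Of 14 adaptor and signalling genes, 13 were called higher in NOD.H-2b, against 17.6% of all genes. The list median was 2.74 on the log2 scale. Tyrobp (DAP12), the adaptor of activating Klra and Klrc receptors, rose by 2.10 and Hcst (DAP10), the adaptor of Klrk1, by 2.87. The phosphatase Ptpn6 (SHP-1), recruited by inhibitory receptors, rose by 1.30, while Ptpn11 (SHP-2), which most cells express, was at -0.12 and not called. Several of these genes are shared with T, B or myeloid cells.

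Of 21 listed ligands, 11 could be tested and 6 were called higher in NOD.H-2b, against 17.6% of all genes. H2-T23 (Qa-1), which Klrc1 and Klrd1 bind, rose by 1.41 and Clec2d, bound by Klrb1b, by 1.15 on the log2 scale. Clec2i, a ligand of Klrb receptors, rose by 4.18 and Clec2f by 3.05. H2-K1 rose by 2.80, but the reference genome carries the H2b haplotype of NOD.H-2b and not the H2d of BALB/c, so the match of reads to H2-K1 and H2-D1 differs between the strains. H60b, a Klrk1 ligand, was at 0.48 and Cdh1, bound by Klrg1, at 0.20; neither was called.

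Among 9 tested neighbours from the NK gene complex that are not Klr genes, 5 were called higher, against 17.6% of all genes. Styk1, a kinase-like gene beside the Klr genes, had 1 to 10 counts in BALB/c and 380 to 696 in NOD.H-2b and differed by 6.41 on the log2 scale (SE 0.18). Gabarapl1, Magohb, Clec1a and Ybx3 of the same complex were not called, with values from -0.29 to 0.38.

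Between neighbouring ages no Klr gene was called in the NOD.H-2b mice, and their 6M mice were not tested against their 2M mice. Between 2M and 4M, 0 of 25 tested genes passed by edgeR, with 2 at an unadjusted p under 0.05, and 0 of 25 by DESeq2; 5.97% of all genes were called higher and 0.625% lower. The median change of the Klr genes was 0.44 on the log2 scale. From 4M to 6M, 0 of 26 passed by edgeR, with 3 at an unadjusted p under 0.05, and 0 of 18 with an adjusted p by DESeq2, where 0.00555% of all genes were called higher and 0 lower. In 5 of the 25 every 4M mouse lay above every 2M mouse, against 21.8% of all genes. In 6 of the 26 every 6M mouse lay above every 4M mouse, against 8.41% of all genes. Klrk1 was at 3.55 ± 1.14 CPM at 2M, 5.83 ± 0.378 CPM at 4M and 6.53 ± 1.39 CPM at 6M (SD, n = 3), and its change from 2M to 4M of 0.71 missed the threshold (adjusted p = 0.0541 by edgeR). Without NOD.H-2b 2M replicate 2, the 2M mouse with most Klr counts, Klrk1 (1.01), Klra17 (1.06) and Klra13-ps (1.11) were called higher at 4M.

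Lymphocyte genes moved over the same interval. Between 2M and 4M in this strain, 5.97% of all genes were called higher. Among them were 5 of 12 T cell genes and 2 of 6 B cell genes, with list medians of 2.07 and 3.89 on the log2 scale. So was 1 of 11 NK markers, with a list median of 0.42. Whether the Klr genes changed less than these lists was not tested. Klra1 was at 2.47 ± 1.31 CPM at 2M, 2.43 ± 0.299 CPM at 4M and 3.56 ± 0.552 CPM at 6M in NOD.H-2b, so the mice of 2M and 4M overlapped, while the mice of 6M lay above those of 4M without passing the test (edgeR adjusted p = 0.321).

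In BALB/c only Klrk1 passed the filter between ages. It changed by 1.31 on the log2 scale from 2M to 4M (SE 0.67, edgeR adjusted p = 0.254) and by -0.61 from 4M to 6M, and neither change was called. Among all genes 2.07% were called higher and 0.3% lower in the first interval, and 0.018% in either direction in the second.

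The change of the strain difference between 2M and 6M was tested as an interaction over the 18 mice. It passed for 0 of 26 Klr genes at an adjusted p under 0.05 by edgeR, with 0 also at an unadjusted p under 0.05, and for 0 of 15 with an adjusted p by DESeq2. Among all genes 7.04% passed with a positive and 9.09% with a negative sign. For Klrk1 the interaction was 0.18 on the log2 scale (SE 0.75) and for Klrd1 0.17 (SE 1.02), errors wide enough to leave changes of 2-fold or more undetected at this depth.

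**Figure D4:**
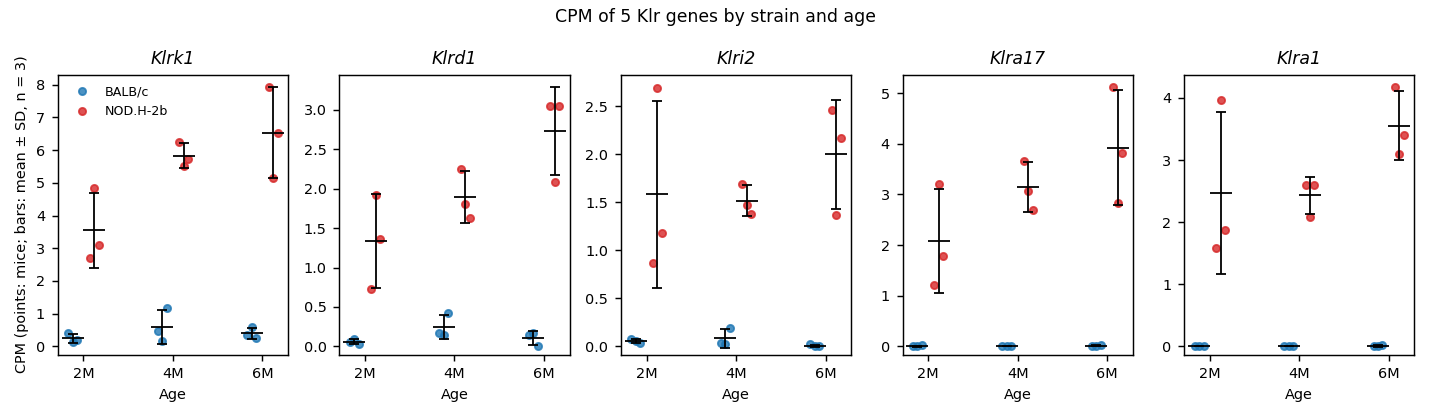
CPM of Klrk1, Klrd1, Klri2, Klra17 and Klra1 by age; points are mice and bars the mean ± SD of 3 mice per strain and age, each panel with its own linear axis. In every panel the NOD.H-2b mice lie above the BALB/c mice at each age, Klra17 and Klra1 of BALB/c lie at or near 0 CPM, and Klrk1 of BALB/c reaches 1.16 CPM in 1 mouse at 4M.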

How the data were processed

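RNA of 1 LG per mouse was depleted of ribosomal RNA and sequenced as 75-base read pairs. The submitters' processing notes name cutadapt, FastQC, STAR, HTSeq and DESeq2 and the build GRCm38; which annotation, strand option and rule for multiply matching reads were used was not given in the sources used here. The authors deposited raw read counts per gene, which were used; a second deposited table of normalised values was not used. The Klr genes, lists and tests were chosen with earlier results of these data known.

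Counts were filtered (filterByExpr), scaled by TMM and tested with edgeR 4.0.16 in R 4.3.3 (6 mice per age or interval, 18 otherwise); DESeq2 1.42.0 was an alternative. Klr genes with at least 10 counts in all 3 mice of some group are named with values, others by range; from other lists, the leading genes and exceptions. For relative levels, the mean log2(CPM + 0.1) of the NK markers was added to the log2 library size as offset. Gene positions, exon lengths and 75-base stretches came from GENCODE M21. The tests were checked on simulated counts without very low genes, so the check does not cover genes barely detected in BALB/c. Separate mice were replicates. Styk1 was named after its values were seen.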

Additional observations from a re-analysis of the deposited data

How the results depend on the processing

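The verdicts on the named Klr genes between strains averaged over ages held under all 22 alternatives tried; 550 of 550 values kept their direction and side of the threshold. Leaving out each mouse gave 18 to 21 called genes at 2M, 18 to 20 at 4M, 23 to 25 at 6M, 25 to 26 averaged over ages and 18 to 21 relative to NK markers. With at least 10 counts required in every mouse, 1 Klr gene could be tested at 6M and was called (1), and none could be tested in the other comparisons that include BALB/c, because BALB/c counts are low.

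Between ages, leaving out 1 mouse gave 0 to 1 called genes from 2M to 4M in BALB/c (Klrc1, without BALB/c 4M replicate 1) and 0 to 3 in NOD.H-2b (without 2M replicate 2); without a filter Klrk1 was 1 call in BALB/c from 2M to 4M. Relative to NK markers, the T cell list as reference turned Klrk1 to -0.25, Klrd1 to -0.031, Klrb1b to -0.26, Klrb1a to -1.50, Klrb1f to -1.17 and Klrc1 to -1.23, and Klrk1 alone turned Klrb1a to -1.27 (-1.43 without BALB/c 4M replicate 3). Of the genes not called in either fit, the T cell list also turned Klrb1c (-0.90), Klrc2 (-1.21) and Klra2 (-0.56) negative, and Klrk1 alone Klrb1c (-0.62), Klrb1f (-0.84), Klrc1 (-1.06), Klrc2 (-1.01) and Klra2 (-0.29); the cause was not tested. The references by summed NK marker counts and by Klrk1, with all mice or without this one, were chosen after seeing the data.

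Mice with the same replicate number had correlations from -0.07 to 0.16 over 9 pairs, and 4 of 9 were best with their own number, all 2M pairs among them. With 3 mice per group this check cannot exclude that the numbers pair the mice, which were treated as unpaired. With a replicate block, 18, 19, 24 and 25 Klr genes were called between strains at 2M, 4M, 6M and averaged over ages and 18 relative to NK markers, and 0 between ages or for strain by age. BALB/c depth limits the family: 795 Klr counts in 9 mice.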
